A study of Mus musculus with 12 samples.

Results

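Of the 25759 genes in the deposited tables, 8 that are known as markers of the two-cell-like state were examined. They were found by their names in all 12 tables, and are Zscan4b, Zscan4c, Zscan4d, Zscan4e, Zscan4f, Tcstv1, Tcstv3 and Zfp352. All 8 lay at or near 0 in most wild-type libraries, and all 8 had their 4 highest levels in the libraries labelled ΔCdk8 clone 8 and clone 15. The library labelled clone 11 was close to the wild-type libraries, both before and after Xist induction. No comparison between the genotypes passed the threshold for any of the 8 genes with edgeR.

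Mouse embryonic stem cells (ESCs) in culture include a rare and transient population that transcribes genes of the two-cell embryo, the stage at which the mouse genome is first broadly activated. These two-cell-like cells are known for transcripts of the Zscan4 cluster, the Tcstv genes, Zfp352 and MERVL retroviral elements, and ESCs pass in and out of the state. The transcription factor Dux, helped by Dppa2 and Dppa4, turns on many of these genes, while chromatin complexes that silence retroviral elements restrain them.

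All cells were of the mouse ESC line HATX3, a diploid line of haploid origin in which doxycycline switches on Xist. Wild-type libraries, numbered 1, 2 and 3, came from the parental line, labelled WT. ΔCdk8 libraries, labelled Cdk8-/-, came from clones 8, 11 and 15, in which a short stretch with the start codon of the Mediator kinase gene Cdk8 had been deleted, so that each ΔCdk8 sample is 1 clone. Each was sampled uninduced and after 48 h of Xist expression, which gives 4 groups of 3 libraries, and every cell carries the inducible Xist system. Polyadenylated RNA was sequenced, and the authors' tables give reads per gene and TPM, exon reads per exon length scaled to the same total in each library. Between 22170087 and 60798578 reads were counted on genes, of which 92.7% to 94.1% mapped uniquely. Pou5f1, which marks pluripotent cells, had a TPM of at least 684 in each library. The targeted gene Cdk8 had a TPM of 51.5 to 74.2 in wild-type libraries, 33.4 and 34.4 in those labelled clone 8, 56.8 and 57.8 for clone 11, and 84.9 and 85.3 for clone 15. Only a small part of the gene was deleted, so a gene-level TPM does not check the deletion, and the clone labels were taken as given. Nothing in the labels says that the wild-type numbers were separate cultures, so p-values measure the spread between these libraries, which may be partly technical.

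The 5 Zscan4 genes belong to a family named for a SCAN domain and zinc fingers and known for telomere maintenance in ESCs. They lie within 502 kb on chromosome 7 of GRCm38, with Zscan4b (10900740 to 10905050), Zscan4d (11161374 to 11166159) and Zscan4e (11306378 to 11310682) on the reverse strand. Zscan4c (11005745 to 11010547) and Zscan4f (11397915 to 11402318) are on the forward strand. Zscan4-ps1, Zscan4-ps2 and Zscan4-ps3, other copies named as pseudogenes but listed as protein-coding in the tables, share the cluster. Tcstv1 (119893388 to 119894785) and Tcstv3 (120316878 to 120318178), a pair of related small genes first described in two-cell embryos, lie 422 kb apart on chromosome 13. Zfp352 (90218820 to 90225702), a zinc finger gene of the early embryo, is on chromosome 4.

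The promoters of the Zscan4 genes are shown because these genes are close copies that had their high levels in the same libraries. RefSeq windows of GRCm38.p6, from 250 bases before to 50 after the start site, were matched for 5 of the 8 genes, namely Zscan4b, Zscan4c, Zscan4d, Zscan4f and Zfp352. The 250 bases before the start site of Zscan4b (chr7:10905051-10905300, reverse strand), Zscan4d (chr7:11166149-11166398, reverse strand) and Zscan4f (chr7:11397665-11397914, forward strand) read as follows, 5′ to 3′. Capitals mark TATAAA, the TATA box, and TGATTNNAT, the core of the motif bound by Dux, on either strand.
Zscan4b: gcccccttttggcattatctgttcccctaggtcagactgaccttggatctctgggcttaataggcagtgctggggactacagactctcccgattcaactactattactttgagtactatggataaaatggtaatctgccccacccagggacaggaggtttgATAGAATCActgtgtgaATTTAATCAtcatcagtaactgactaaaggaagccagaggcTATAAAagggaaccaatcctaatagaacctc
Zscan4d: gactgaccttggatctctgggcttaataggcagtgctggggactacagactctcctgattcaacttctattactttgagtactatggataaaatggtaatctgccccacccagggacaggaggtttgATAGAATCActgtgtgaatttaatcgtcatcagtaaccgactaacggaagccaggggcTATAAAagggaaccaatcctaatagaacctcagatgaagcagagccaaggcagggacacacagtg
Zscan4f: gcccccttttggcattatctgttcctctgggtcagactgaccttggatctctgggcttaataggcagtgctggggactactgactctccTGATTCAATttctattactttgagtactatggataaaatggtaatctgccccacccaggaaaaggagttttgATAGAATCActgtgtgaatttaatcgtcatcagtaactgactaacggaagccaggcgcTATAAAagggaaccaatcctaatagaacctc

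Over 266 to 300 aligned bases the 4 Zscan4 windows were 95.3% to 99.3% identical to one another, and the Zfp352 window was 46.9% to 51.2% identical to them over 270 to 283. TATAAA was in 4 of the 5 windows, the 4 of Zscan4, against 13.6% of 32544 RefSeq windows. TGATTNNAT was in the same 4 windows, against 2.94% of all windows. TGCACAC, a motif that Zscan4 protein is known to bind, was in 0 of the 5 windows and in 4.42% of all. Both strands were searched and no match overlapped another. These near-copies are not independent, and a match of letters is a description, not a bound site.

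The likeness of the Zscan4 genes extends over their transcripts and sets how their levels can be read. The longest annotated transcripts of the 5 genes were 96.6% to 99.7% identical to one another, with Zscan4b and Zscan4e the closest, and those of Tcstv1 and Tcstv3 94.5%. Of all windows of 100 bases in the transcripts of Zscan4f, 19.4% occurred in no other gene, while 67.5% were also in Zscan4-ps2 and 62.7% in Zscan4c. The share found in no other gene was 18.5% for Zscan4e, 23.7% for Zscan4b, 27.2% for Zscan4c and 70.4% for Zscan4d. It was 92.2% for Tcstv3, 96.4% for Tcstv1 and 99.4% for Zfp352. The share of exon reads that the authors' mapping kept as unique followed the same order except at its low end. Over the 12 libraries it was 8.95% of 659 reads for Zscan4f, 13.9% of 375 for Zscan4e, 26.1% of 115 for Zscan4b, 29.4% of 411 for Zscan4c and 79.5% of 200 for Zscan4d. For Tcstv3 it was 91.1% of 45 reads, for Tcstv1 96.1% of 51 and for Zfp352 100% of 47. The median over 16629 genes with at least 10 exon reads was 100%, and 5.62% of them were under 50%, as were 4 of the 8 genes here. The TPM of Zscan4b, Zscan4c, Zscan4e and Zscan4f therefore rests mainly on reads that also match another copy, and that of Zscan4d, Tcstv1, Tcstv3 and Zfp352 mainly on reads of their own.

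**Figure D1:**
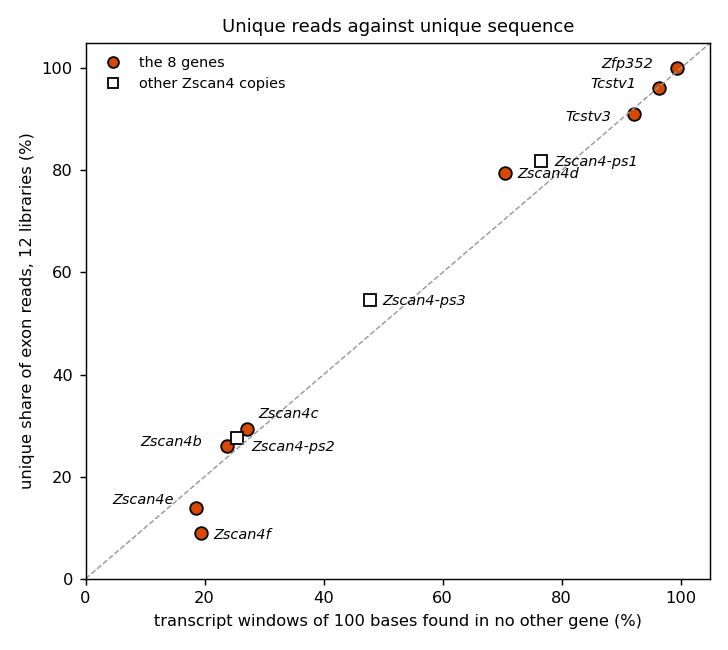
Unique share of exon reads over the 12 libraries (y axis, %) against the share of transcript windows of 100 bases found in no other gene (x axis, %), with the 8 genes as circles and other Zscan4 copies as squares. The dashed line marks equal shares. Zscan4f (8.95% against 19.4%) lies lowest and Zfp352 (100% against 99.4%) highest.

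The summed TPM of the 8 genes was 0.106, 1.91 and 0.172 in uninduced wild-type libraries 1, 2 and 3, and 10.6, 0.516 and 22.5 in uninduced libraries labelled clones 8, 11 and 15. After 48 h of induction it was 0.693, 0.447 and 0.224 in wild-type libraries and 6.68, 0.653 and 16.2 in the ΔCdk8 libraries. The 4 libraries labelled clone 8 and clone 15 were thus above all others, and both libraries of clone 11 lay below uninduced wild-type library 2. In numbers of exon reads the sums were 3, 53 and 8 in uninduced and 15, 8 and 7 in induced wild-type libraries. They were 450, 16 and 707 in uninduced and 297, 15 and 324 in induced ΔCdk8 libraries. The group means were 0.728±1.02 (mean±s.d., n = 3) in uninduced and 0.455±0.235 (n = 3) in induced wild-type cells. In ΔCdk8 cells they were 11.2±11 (mean±s.d., n = 3) uninduced and 7.84±7.82 (n = 3) induced, so that the spread between clones was about as large as the mean. In bulk RNA, a different number of expressing cells and a different amount of RNA per cell cannot be told apart.

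**Figure D2:**
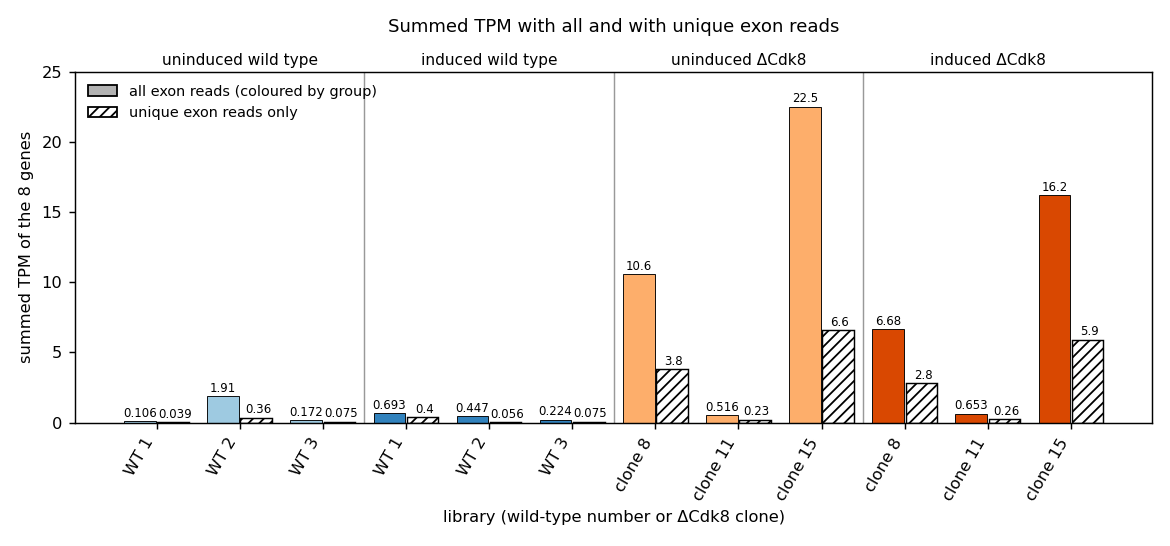
Summed TPM of the 8 genes in each library, as bars that start at 0, from all exon reads (coloured by group) and from unique exon reads only (hatched). With either kind of read the 4 libraries labelled clone 8 and clone 15 are highest, and each bar is 1 library, with its value printed above it.

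Unique reads gave the same order of those 4 libraries. Computed from unique exon reads, the summed TPM was 3.8 and 2.83 for the uninduced and induced libraries labelled clone 8, and 6.58 and 5.91 for clone 15. It was 0.229 and 0.257 for clone 11, and lay between 0.0393 and 0.402 in the 6 wild-type libraries. The value of uninduced wild-type library 2 was 0.364 with unique reads, against 1.91 with all reads. All of its 32 exon reads on Zscan4f were shared with another copy.

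The Zscan4 genes made up most of the sum. In the 4 libraries labelled clone 8 and clone 15 they gave 81% to 93.1% of the summed TPM. Zscan4f had the highest TPM of the 5 in each of these libraries, from 32% to 46% of the Zscan4 total, and Zscan4b or Zscan4d the lowest, from 4.6% to 9.84%. Since reads can be split between copies, these shares are those of the authors' read assignment.

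Zscan4f had a TPM of 0, 1.16 and 0.0871 in uninduced wild-type libraries 1, 2 and 3 and of 2.86, 0.168 and 7.82 in uninduced clones 8, 11 and 15. After induction the values were 0, 0.347 and 0.0913 in wild-type libraries and 2, 0.25 and 6.7 in the clones. The libraries of clone 8 and clone 15 were above every wild-type library, and clone 11 was within the wild-type range. Zscan4f had 0 unique reads in each wild-type library and in both libraries of clone 11.

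Zscan4e, the closest copy of Zscan4b, had a TPM of 0, 0.278 and 0.0476 in uninduced wild-type libraries and 1.81, 0 and 6.16 in the uninduced clones. Induced, it had 0.435, 0 and 0.133 in wild-type libraries and 1.24, 0.228 and 2.35 in the clones. Wild-type library 1, without a read uninduced, had 10 exon reads on Zscan4e after induction, and clone 11 had 0 and 5.

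Zscan4c, the copy from which the expression of the cluster is often followed in ESC reporter lines, had a TPM of 0.106, 0.282 and 0 in uninduced wild-type libraries. It had 2.36, 0.0481 and 4.06 in the uninduced clones. The induced values were 0.103, 0 and 0 in wild-type libraries and 1.22, 0 and 2.48 in the clones. Clone 11 lay within the wild-type range in both conditions.

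Zscan4b had a TPM of 0, 0.119 and 0 in uninduced wild-type libraries and 1.04, 0 and 0.963 in the uninduced clones. Induced, it had no exon read in the 3 wild-type libraries and a TPM of 0.355, 0.0453 and 1.38 in the clones. The induced groups did not overlap, but clone 11 was set apart by 1 read.

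Zscan4d, the copy typical of the two-cell embryo itself, has mostly reads of its own. Its TPM was 0, 0.0627 and 0.0376 in uninduced wild-type libraries and 0.881, 0.121 and 1.94 in the uninduced clones, so that the groups did not overlap. The clone 11 value rests on 5 exon reads, against 2 in each of wild-type libraries 2 and 3. After induction the TPM was 0, 0.0998 and 0 in wild-type libraries and 0.601, 0.0719 and 1.65 in the clones, with clone 11 inside the wild-type range.

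Tcstv1 had no exon read in uninduced wild-type libraries and a TPM of 0.573, 0.0392 and 0.266 in the uninduced clones. Induced, it had 0.0558, 0 and 0 in wild-type libraries and 0.458, 0.0584 and 0.617 in the clones. The groups did not overlap in either condition, with 1 exon read in each library of clone 11 and 1 in induced wild-type library 1.

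Tcstv3 likewise had no exon read in uninduced wild-type libraries, and a TPM of 0.913, 0.141 and 0.796 in the uninduced clones. Induced, it had 0.1, 0 and 0 in wild-type libraries and 0.493, 0 and 0.861 in the clones. The uninduced groups did not overlap and the induced groups did, through clone 11.

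Zfp352 had no exon read in any of the 6 wild-type libraries or in clone 11. Its TPM was 0.176 and 0.49 in uninduced clones 8 and 15, from 9 and 18 exon reads, and 0.319 and 0.126 in the same clones induced, from 17 and 3. All of these reads were unique.

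**Figure D3:**
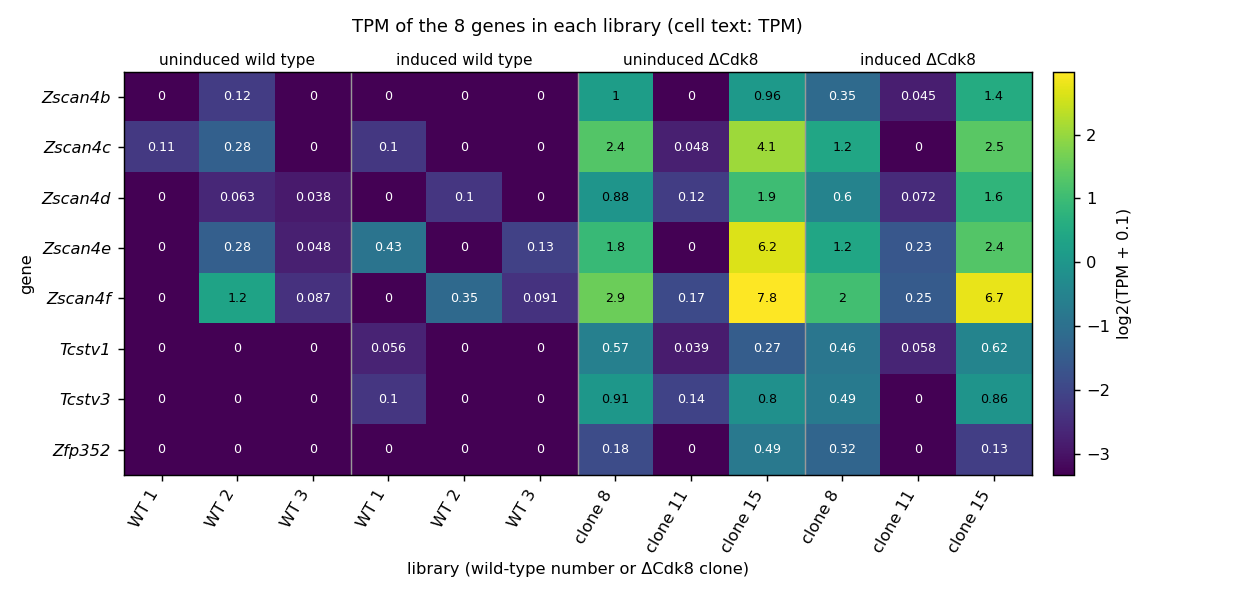
Level of each of the 8 genes (rows) in each of the 12 libraries (columns), with the TPM printed in each cell and the colour giving log2(TPM + 0.1). The columns labelled clone 8 and clone 15 hold the 4 highest values in every row, and Zfp352 is at 0 in all wild-type and clone 11 libraries.

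Every ΔCdk8 library was above every wild-type library for 3 of the 8 genes in uninduced cells, Zscan4d, Tcstv1 and Tcstv3. This held for 15% of 18140 genes with reads in uninduced cells. In induced cells it held for 2 of the 8, Zscan4b and Tcstv1, and for 17% of 17853 genes. All 8 genes had the libraries labelled clone 8 and clone 15 as their 4 highest. Of 18516 genes with reads, 14.7% had the same 4 libraries highest. Between pairs of the 8 genes, Pearson's r of log2(TPM + 0.1) over the 12 libraries was 0.808 to 0.961, with a median of 0.897 over 28 pairs. This is a description only, since copies share reads and each clone enters as 2 libraries.

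The question put to the genotype comparison was whether the 8 genes differ between ΔCdk8 and wild-type cells beyond the spread between libraries. Exon reads were first pooled over the 3 libraries of each group and divided by their total, which gives ratios with 95% intervals (exact binomial) that cover counting error only and not the spread between clones. In uninduced cells the pooled ratio of ΔCdk8 to wild type was 26.1 for Zscan4d (interval 9.93 to 97.3), 24.1 for Zscan4e (12.5 to 53.2), 20.1 for Zscan4b (6.61 to 99.9), 19.5 for Zscan4c (11 to 38.3) and 9.08 for Zscan4f (6.44 to 13.2). Without a wild-type read, a floor of 3 reads over the group was used. Tcstv3 was then at least 8.05-fold, Zfp352 at least 7.76-fold and Tcstv1 at least 7.19-fold higher. In induced cells the ratio was 34 for Zscan4c (11.4 to 167) and 30 for Zscan4d (8.01 to 252), from 3 and 2 wild-type reads. It was 21.4 for Zscan4f (11.1 to 47.5) and 5.93 for Zscan4e (3.37 to 11.2). From a single wild-type read each, it was 20.5 for Tcstv1 (3.36 to 843) and 13.1 for Tcstv3 (2.04 to 551). Zscan4b was at least 11.5-fold and Zfp352 at least 5.48-fold higher. Bounds at the floor and ratios from fewer reads than the floor are not on the same scale. All of these pooled values rest on clone 8 and clone 15.

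**Figure D4:**
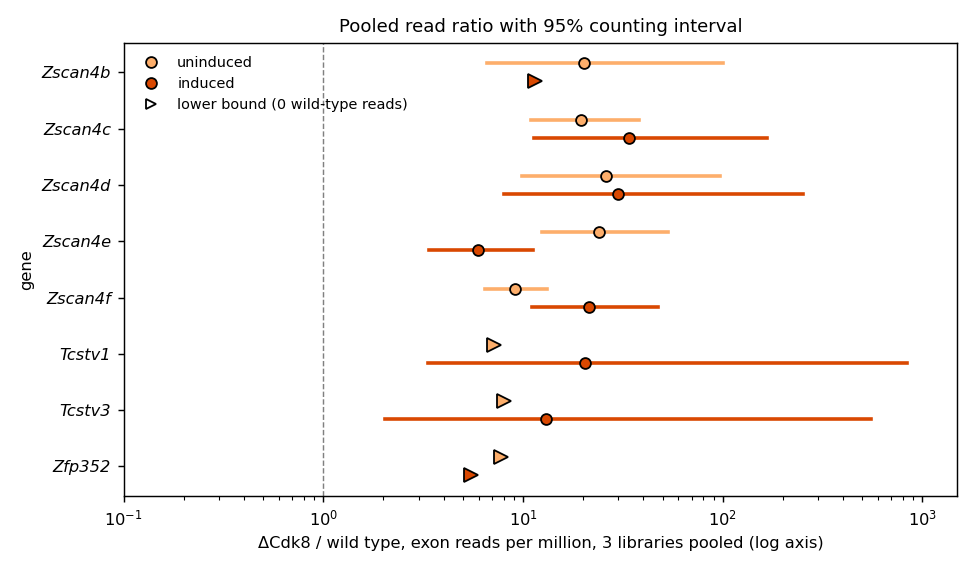
Ratio of ΔCdk8 to wild type in exon reads relative to all exon reads, with the 3 libraries of each group pooled (log x axis), for each of the 8 genes in uninduced and induced cells. Circles are ratios with 95% counting intervals as lines, triangles are lower bounds where the wild-type libraries held 0 reads, and the dashed line marks 1. Values run from at least 5.48 for Zfp352 to 34 for Zscan4c, both induced.

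Tested over libraries with edgeR's quasi-likelihood test, the threshold being a fold change above 2 and a Benjamini-Hochberg adjusted p under 0.01, 0% of 14646 genes passed in uninduced cells. Only Zscan4c and Zscan4f had enough reads to be tested there, and 0 of the 2 passed. An unadjusted p under 0.05 was found for 1 of them, and for 20.4% of all genes. The log2 fold change of Zscan4c was 3.75 (s.e., the standard error, 1.53, edgeR adjusted p = 0.234) and that of Zscan4f 2.90 (s.e. 1.53, edgeR adjusted p = 0.305). DESeq2's Wald test also called 0 of the 2, and 2.64% of all genes. Both genes had an unadjusted p under 0.05 with it, as had 24.7% of all genes. In induced cells 0% of 14143 genes passed with edgeR, and none of the 8 genes had enough reads to be tested in that fit. A filter on a mean of at least 10 reads covered 4 of them and called 0, and 1 edgeR fit of all 12 libraries covered 5 and called 0, with 0.727% of 15137 genes called higher. The lowest adjusted p in these fits was that of Zscan4d, 0.07 by edgeR over all 12 libraries.

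All 8 genes were tested when every gene with at least 1 read was kept. In uninduced cells edgeR then called 0% of 19369 genes as higher, and 0 of the 8. Of the 5 Zscan4 genes, which had wild-type reads, 4 were higher in ΔCdk8 cells at an unadjusted p under 0.05, as were 10.8% of all genes tested. The 3 others entered this fit through ΔCdk8 reads alone, so that their p-values are no support. Zscan4d had the lowest adjusted p, with a log2 fold change of 4.19 (s.e. 1.04, edgeR adjusted p = 0.145). For Zscan4e it was 4.39 (s.e. 1.63, edgeR adjusted p = 0.229) and for Zscan4b 3.86 (s.e. 1.63, edgeR adjusted p = 0.267). Tcstv3, Tcstv1 and Zfp352, without wild-type reads, had adjusted p-values of 0.177, 0.201 and 0.237 by edgeR. On these genes DESeq2's Wald test called Zscan4d (log2 fold change 4.22, s.e. 1.13, DESeq2 adjusted p = 0.00677) and none of the 6 others with an adjusted p, with 1.51% of all genes called higher. It gave no adjusted p for Tcstv1.

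In induced cells, with the same genes kept, edgeR called 0.0105% of 19061 genes as higher and 0 of the 8. Of the 6 genes with wild-type reads, 5 were higher in ΔCdk8 cells at an unadjusted p under 0.05, as were 13.2% of all genes, while Zscan4b and Zfp352 entered through ΔCdk8 reads alone. Zscan4f had the lowest adjusted p, with a log2 fold change of 4.31 (s.e. 1.21, edgeR adjusted p = 0.0929). Zscan4c had 4.89 (s.e. 1.58, edgeR adjusted p = 0.122), Zscan4d 4.65 (s.e. 1.43, edgeR adjusted p = 0.11) and Zscan4e 2.73 (s.e. 1.06, edgeR adjusted p = 0.176). DESeq2's Wald test called Zscan4f (log2 fold change 4.25, s.e. 1.15, DESeq2 adjusted p = 0.0042) and 3.12% of all genes as higher. It gave no adjusted p for Tcstv1, Tcstv3 and Zfp352. Over the 8 genes, with those lacking wild-type reads set at their bound, the median log2 fold change was 3.37 uninduced and 3.64 induced, against 0.06 and 0.09 over all genes tested.

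The libraries of clone 11 set the spread within the ΔCdk8 groups. Without them the log2 fold change of Zscan4d was 4.71 uninduced (adjusted p = 0.0124 by edgeR) and that of Zscan4c 5.46 induced (adjusted p = 0.011 by edgeR). Leaving them out brought 4 of the 8 genes uninduced and 5 induced under an adjusted p of 0.05 with edgeR, and 0 past 0.01. Zscan4b, without wild-type reads, was 1 of the 5. Of all genes, 5.28% uninduced and 7.89% induced were then higher under an adjusted p of 0.05. Wild-type library 2 held most wild-type reads, and without it the log2 fold change of Zscan4f in uninduced cells was 5.81 (s.e. 1.62, edgeR adjusted p = 0.44). Without the library labelled clone 15 it was 1.74 (s.e. 1.44, edgeR adjusted p = 0.635). Uninduced Zscan4e moved in the same way, to 6.14 without wild-type library 2 and 2.95 without clone 15, and uninduced Zscan4c lay between 2.98 and 5.42. In induced cells the log2 fold change without 1 library lay between 3.17 and 5.64 for Zscan4f and between 1.95 and 3.93 for Zscan4e. Single wild-type libraries held all wild-type exon reads of some genes. The fold changes fitted without them rest on ΔCdk8 reads alone and are not given here. These were library 2 for uninduced Zscan4b and induced Zscan4d, and library 1 for induced Zscan4c, Tcstv1 and Tcstv3. Without them the adjusted p-values were 0.501, 0.165, 0.0993, 0.13 and 0.219 by edgeR, in that order. When the reads of both libraries of each number or clone were summed, the 7 genes with wild-type reads were higher at an unadjusted p under 0.05, as were 11.8% of all genes, and 0 of the 8 were called, the lowest adjusted p being that of Zscan4d (0.119 by edgeR).

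Whether Xist induction moved the 8 genes was asked within each genotype. The ratio of the induced to the uninduced summed TPM was 6.53, 0.235 and 1.3 in wild-type numbers 1, 2 and 3, so that the numbers differed in direction. It was 0.629, 1.27 and 0.719 in clones 8, 11 and 15. In clone 8, 7 of the 8 genes had a lower TPM after induction and 1, Zfp352, a higher one. In clone 15, 5 were lower and 3 higher, Zscan4b, Tcstv1 and Tcstv3, while Zfp352 was lower from 18 against 3 reads. Zscan4c, Zscan4d, Zscan4e and Zscan4f were lower in both clones, by ratios between 0.382 for Zscan4e and 0.857 for Zscan4f, both in clone 15.

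With edgeR, 0 of 7 tested genes of the 8 passed in ΔCdk8 cells, and 0% of 14832 genes were called. An unadjusted p under 0.05 was found for 0 of the 7 and for 2.64% of all genes. DESeq2 also called 0 of the 7, and 0.243% of all genes. Log2 fold changes ran from −0.79 for Zscan4e (s.e. 1.44, edgeR adjusted p = 1) to 0.35 for Tcstv1 (s.e. 0.95, edgeR adjusted p = 1). With the clone as a replicate block, 20 genes of the whole table were called higher and 188 lower, and still 0 of the 7. Zscan4c had the lowest adjusted p in that fit, with a log2 fold change of −0.80 (s.e. 0.31, edgeR adjusted p = 0.107). In wild-type cells 1.16% of 14006 genes were called, and none of the 8 genes had enough reads to be tested. With every gene of at least 1 read kept, edgeR called 0 of 7 and 0.967% of all genes, and 0 of the 7 had an unadjusted p under 0.05, against 16.5% of all genes. DESeq2 gave an adjusted p for 1 of the 7 there, Zscan4f (0.723 by DESeq2), and none for the other 6. The interaction of genotype and induction called 0% of 15137 genes with edgeR, and 0 of the 5 members tested. Of these 5, 0 had an unadjusted p under 0.05, against 3.88% of all genes. DESeq2 called 0 of the 5, and 0.218% of all genes.

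Other copies of the Zscan4 cluster had the same pattern of libraries. The summed TPM of Zscan4-ps1, Zscan4-ps2 and Zscan4-ps3 was 2.7, 0.217 and 5.9 in uninduced clones 8, 11 and 15 and 1.44, 0.148 and 4.24 induced, against at most 0.24 in the wild-type libraries. All 3 had the libraries of clone 8 and clone 15 as their 4 highest, as had 14.7% of all genes with reads. Of the 3, edgeR tested Zscan4-ps2 in uninduced cells, where the log2 fold change was 4.93 (s.e. 1.20, edgeR adjusted p = 0.141), and 0 were called. With every gene of at least 1 read kept, the 3 had a median log2 fold change of 4.73 uninduced (with Zscan4-ps3, without wild-type exon reads, at its bound) and 3.24 induced. On these genes DESeq2 called Zscan4-ps2 uninduced, with 1.51% of all genes called higher. Of the exon reads of Zscan4-ps2, 27.5% were unique, so that most could also come from other copies, while for Zscan4-ps1 it was 81.9% and for Zscan4-ps3 54.6%.

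Of 42 other genes of the two-cell embryo and two-cell-like cells that were listed from general knowledge, 40 are in the tables and 39 had reads. For 18 of the 39, the libraries labelled clone 8 and clone 15 were the 4 highest, as they were for 14.7% of all genes with reads. They include the deubiquitinase genes Usp17la to Usp17le, the BTB domain genes Tdpoz3 and Tdpoz4, Pramef25, Tmem92, Gm5662 and Gm8300. Several belong to families of related copies that may share reads, so the 18 are not independent of one another. Their shares of unique reads are not given here. Exon reads were found on 31 of the 40 in uninduced clone 8 and 34 in clone 15, on 34 and 29 induced, and on 6 to 15 in each wild-type and clone 11 library. Gm5662 had a TPM of 2.13, 0 and 4.08 in uninduced clones 8, 11 and 15, against at most 0.0464 in wild-type libraries. The summed TPM of the list does not separate the libraries in this way, because Ddit4l, a stress-response gene, had a TPM of 5.14 to 26 in wild-type and 0.568 to 5.97 in ΔCdk8 libraries.

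With edgeR, 6 of these genes were tested in uninduced cells and 0 called, the largest change being that of BB287469 (log2 fold change 4.63, s.e. 1.19, edgeR adjusted p = 0.147). Higher levels at an unadjusted p under 0.05 were found for 3 and lower levels for 1, where 20.4% of all genes had such a p in either direction. In the fit on every gene with at least 1 read, 39 were tested uninduced and 0 called. Of the 39, 18 had no exon read in uninduced wild-type libraries and entered through ΔCdk8 reads, so that their p-values are no support. Of the other 21, 7 were higher and 1 lower at an unadjusted p under 0.05, with 10.8% of all genes higher. With genes lacking wild-type reads at their bound, and without 7 that had at most 3 reads in both groups, the median log2 fold change was 2.38, against 0.06 over all genes. Induced, 37 were tested and 0 called, and 18 of them had no wild-type exon read. Of the other 19, 4 were higher and 2 lower at that p, with 13.2% of all genes higher. The median over 32 of the 37, taken in the same way, was 2.13 against 0.09. Among genes with wild-type reads, DESeq2 called Gm5039 higher uninduced, with 1.51% of all genes called higher. Induced, it called Ddit4l lower, with 296 of 19061 genes called lower and 3.12% called higher. It also called Gm2016 uninduced and Gm8300 induced, which had 0 wild-type reads there and entered through ΔCdk8 reads alone.

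**Figure D5:**
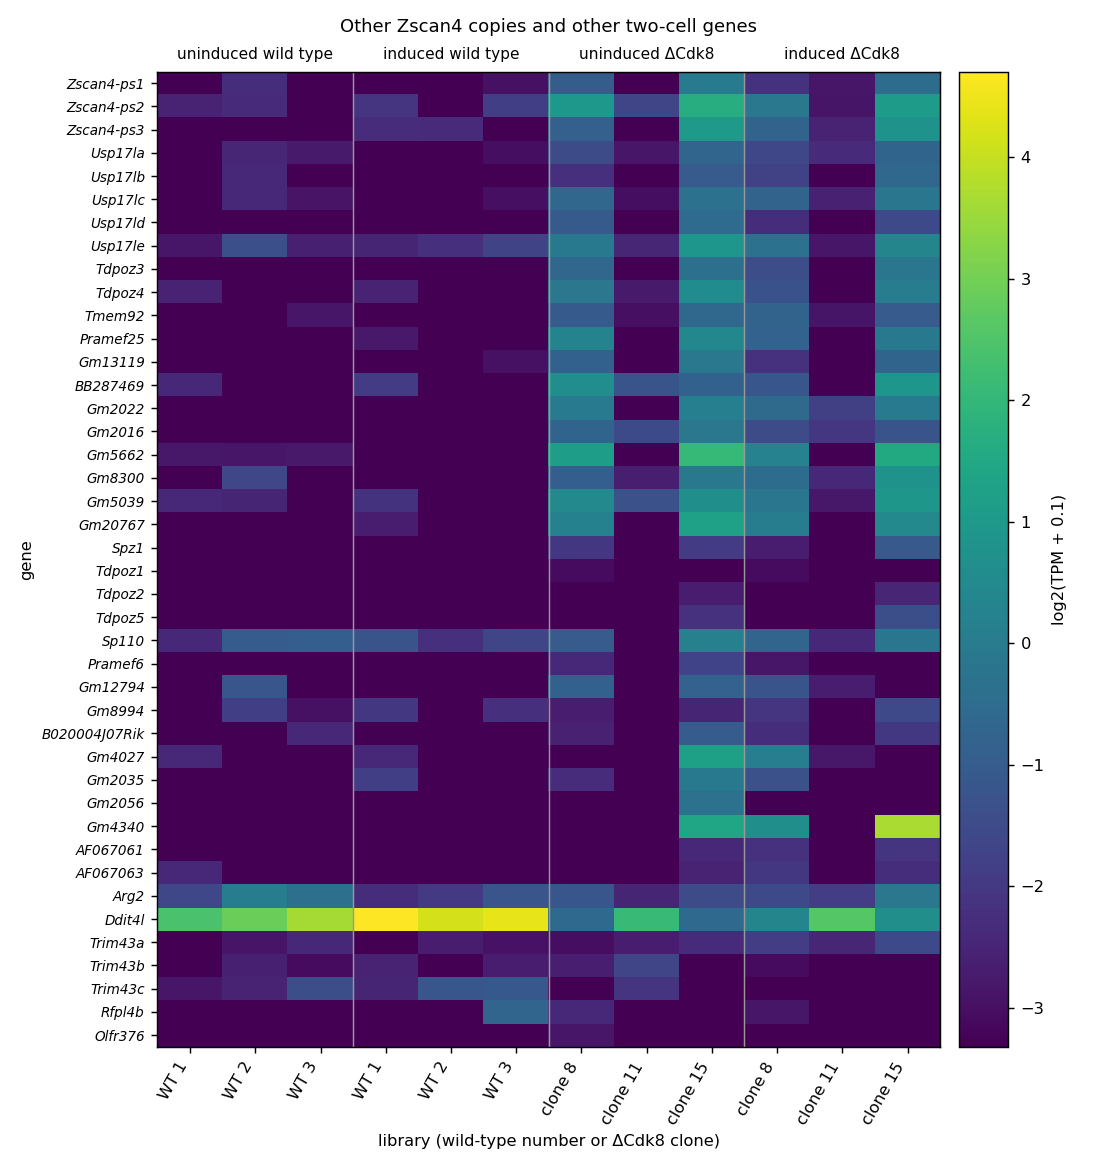
Level, as log2(TPM + 0.1) on a colour scale, of 3 other Zscan4 copies and 39 other genes of the two-cell embryo and two-cell-like cells (rows) in the 12 libraries (columns), with genes that share the 4 highest libraries first. The libraries labelled clone 8 and clone 15 are brightest in most of the upper rows, while Ddit4l is brightest in wild-type libraries.

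Of the known activators, Duxf3, the entry in the tables for Dux, had a TPM of 0 to 0.0949 in wild-type and 0.0203 to 0.182 in ΔCdk8 libraries, the highest value being that of induced clone 11. Dppa2 was at 183 to 273 in wild-type and 103 to 176 in ΔCdk8 libraries, and Dppa4 at 274 to 487 and 255 to 329. The list of activators holds 7 genes of the tables. Some are Duxbl genes, relatives of Dux, so its counts and medians are not those of established activators alone. Of the 7, 0 had the 4 libraries of clone 8 and clone 15 highest, against 14.7% of all genes with reads. EdgeR tested 5 of them in uninduced cells and called 0, with 0 higher and 2 lower at an unadjusted p under 0.05, a p that 20.4% of all genes had. Nelfa, a subunit of the negative elongation factor, had the largest change (log2 fold change −0.49, s.e. 0.16, edgeR adjusted p = 0.183). In induced cells edgeR also called 0 of 5, with 0 higher and 3 lower at that p, which 25.9% of all genes had. The median log2 fold change of the 5 was −0.38 uninduced and −0.54 induced, against 0.03 over all genes in both. With genes of at least 1 read, 7 were tested induced and 0 called, with a median log2 fold change of 0.63, against 0.09 over all genes. Of the 6 with wild-type exon reads, 1 was higher and 3 lower at an unadjusted p under 0.05. Uninduced, that median was −0.19 against 0.06. DESeq2 on genes with at least 1 read called 0 in either condition, with no adjusted p for Duxf3 and Duxbl3.

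Among 20 chromatin factors known to restrain the two-cell-like state, edgeR called 0 in uninduced or induced cells, and DESeq2 on genes with at least 1 read called 0 in both. At an unadjusted p under 0.05 with edgeR, 1 was higher and 2 lower uninduced, and 1 higher and 4 lower induced, where 20.4% and 25.9% of all genes had such a p in either direction. The median log2 fold changes were −0.27 and −0.23, against 0.03 over all genes in both. The largest change in uninduced cells was that of Trim28, the corepressor of KRAB zinc finger proteins (log2 fold change −0.65, s.e. 0.35, edgeR adjusted p = 0.319). The TPM of Trim28 was 875, 1647 and 777 in uninduced clones 8, 11 and 15, and at least 1288 in each wild-type library, so that clones 8 and 15 were lowest for this gene. Setdb1, the histone methyltransferase recruited by Trim28, was the 1 gene of the list with the libraries of clone 8 and clone 15 highest, at 116 to 152 in ΔCdk8 and 89.3 to 113 in wild-type libraries. The same 4 libraries were highest for 14.7% of all genes with reads.

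Pluripotency markers had summed TPM values of 4540 to 7605 in uninduced and 6193 to 6928 in induced wild-type libraries, and 4967 to 7844 and 4918 to 7973 in ΔCdk8 libraries. With edgeR 0 of 10 were called in either comparison of the genotypes, with 1 of the 10 at an unadjusted p under 0.05 in each, against the same 20.4% and 25.9% of all genes, and DESeq2 on genes with at least 1 read also called 0. Nanog had the largest change in uninduced cells (log2 fold change 1.42, s.e. 0.45, edgeR adjusted p = 0.175). Markers of differentiated cells and feeders, 12 genes, had a summed TPM of 138 to 167 in uninduced and 55.2 to 196 in induced wild-type libraries. It was 207 and 192 in clone 8, 122 and 108 in clone 11 and 536 and 464 in clone 15, uninduced and induced. Keratins made up most of it in clone 15, and Krt18 had the libraries of clone 8 and clone 15 as its 4 highest, at 106 to 320, against at most 102 elsewhere. Krt18 was the 1 gene of the 12 with these 4 libraries highest, as they were for 14.7% of all genes with reads. Sox17 was at 0 in 1 wild-type and 1 ΔCdk8 library, and the other 11 were above 0 in all. The summed level was thus also highest in clone 15. Of the 12, 5 had their highest TPM in a wild-type library (Fgf5, Otx2, Gata6, Cdx2 and T) and 7 in a ΔCdk8 library. Of these 7, Krt8, Krt18, Gata4, Col1a1 and Col1a2 were highest in clone 15, and Thy1 and Sox17 in clone 11. Gata4, an endoderm factor, was at 1.82 to 5.42 in all ΔCdk8 libraries and at 0.145 to 1.52 in all wild-type libraries, without overlap. Col1a2, a fibroblast collagen, was at 3.67 and 3.48 in clone 15 and at most 0.874 elsewhere. The median log2 fold change of those tested was 1.07 uninduced and 0.84 induced, against 0.03 over all genes in both. The part of these markers in the results for the 8 genes was not tested. EdgeR called 0 of the 10 tested in uninduced cells, the largest change being that of Fgf5 (log2 fold change −3.14, s.e. 0.91, edgeR adjusted p = 0.163), a marker of primed cells. At an unadjusted p under 0.05, 1 was higher and 2 lower, against 20.4% of all genes in either direction, and DESeq2 on genes with at least 1 read called 0 higher and Fgf5 and Otx2 lower.

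Among 15132 other genes with enough reads, those whose log2(TPM + 0.1) was most like that of the summed 8 genes over the 12 libraries were Xlr5b (Pearson's r 0.965), Ppp6r2 (0.963), Usp17lc (0.956), Gm8300 (0.954) and Garnl3 (0.952). Xlr5b, an X-linked gene of the Xlr family, had a TPM of 0.943, 0 and 1.6 in uninduced clones 8, 11 and 15, 0.611, 0 and 1.1 induced, and at most 0.0817 in wild-type libraries. Ppp6r2, a regulatory subunit of protein phosphatase 6, had 4.15, 1.67 and 5.45 in the uninduced clones, against 1.28 to 2.58 in wild-type libraries. An r above 0.9 was found for 168 genes. The r values are descriptions over libraries that include each clone at both conditions, so that any difference between clones, whatever its origin, enters them.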

How the data were processed

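Untrimmed reads were aligned to Ensembl GRCm38 with the CLC Genomics Workbench, and the authors gave 1 table per library. Its counts, as deposited, are unnormalised reads on each gene, its exons and its introns, for all and for unique reads. The deposited TPM values were recomputed from exon reads and exon length within a relative difference of 1.96e-04. The deposited fraction column gives unique over total exon reads. How reads that match several genes were shared out is not given in the sources used here. RPKM columns were left out.

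Total gene reads were tested with edgeR 4.0.16 in R 4.3.3 (TMM, quasi-likelihood F test, genes kept by filterByExpr at a count of 10 and a total of 15) and, as an alternative, with DESeq2 1.42.0. The fold change and adjusted p limits were the study's. p-values are two-sided and adjusted over all genes tested. A standard error is the size of the log2 fold change over the square root of F. With 3 libraries a group, the smallest two-sided p of an exact permutation test is 0.1, and none was run on single values. Tables and sequences were handled with Python 3.11.15, pandas 2.3.3 and Biopython 1.88. Promoters are those of RefSeq, transcripts those of GENCODE.

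The 8 genes, the lists and the tests were chosen with earlier results of these data known, and the study named Zscan4 genes from the same libraries. The text names all 8 genes. Of each list it names the genes past the threshold with edgeR, of which there were none, and the tested gene with the largest change in uninduced cells, and it names 5 other genes most like the sum. Further genes of the lists were named after their values were seen. Alternatives were DESeq2, unique and exon reads, other filters, an adjusted p limit of 0.05 at any fold change, 1 fit of all 12 libraries, a replicate block, summed libraries and leaving out each replicate. Their combinations with the filter of at least 1 read were added after seeing the data. Deviations from the group mean over 14661 genes correlated at 0.554 or more between same-numbered wild-type libraries and 0.836 or more between libraries of 1 clone, and at most at 0.385 and 0.0353 otherwise, so the numbers were taken as pairing the samples. In data simulated for the uninduced comparison, 96.5% of 200 genes changed 4-fold were recovered among 14646, with 1 false call. The simulation gave all genes the same spread, without differences between clones, and used only genes that passed the filter on low counts. It therefore does not show how often such a change would be found at the spread between these clones. Xist was not analysed here.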

Additional observations from a re-analysis of the deposited data

How the results depend on the processing

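In the comparisons of the genotypes, the 8 genes had 193 alternative log2 fold changes, of which 193 kept the direction and 2 passed the threshold. Where the wild-type libraries of a fit held no read of a gene, as for Zfp352 in every fit, its direction was fixed in advance. The fits also reuse the same libraries, so the count of kept directions is no support. Those 2 came from DESeq2 on genes with at least 1 read, which called 1 of the 8 genes uninduced and 1 induced. The other alternatives that tested any of the 8 called 0, and leaving out each replicate gave 0 to 0 calls. Unique gene reads and unique exon reads tested none of the 8 in either comparison, nor did DESeq2, total exon reads and leaving out clone 8 in induced cells under the filter on low counts, so their 0 calls say nothing of these genes. The replicate block called 0 of 7 tested in ΔCdk8 cells and 0 of 5 in the interaction, with 1.4% and 0.998% of all genes called. It tested none in wild-type cells, where with genes of at least 1 read it called 0 of 7 and 4.14% of all genes. Over all genes it called 208 in ΔCdk8 cells against 0 without it. Over all genes DESeq2 called 386 uninduced and 822 induced between the genotypes where edgeR called 0 and 0, and induction in wild-type cells gave 162 calls, 553 with the replicate block and 0 to 566 when each replicate was left out. With unique exon reads the mean summed TPM was 0.159 in place of 0.728 in uninduced and 0.178 in place of 0.455 in induced wild-type cells, and 3.54 in place of 11.2 and 3 in place of 7.84 in ΔCdk8 cells. The cause was not tested. Depth limits most wild-type values, which rest on 0 to 32 exon reads per gene and library.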
